A study of Homo sapiens with 4 samples.

Results

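The genes described here are the subunits of the transcription factor NF-kB and the inhibitors that NF-kB itself induces. They were taken by symbol: TNFAIP3, NFKBIA, NFKBIE, NFKBIZ, NFKB1, NFKB2, REL, RELA, RELB and BIRC3. Of these 10 genes 9 had a transcript cluster (the array's unit of measurement, usually 1 gene) of their own, out of 22393 genes measured in all. BIRC3 was not analysed here. All 9 passed the filter on low signal, which left 16790 genes to test. RNA was measured on 4 whole-transcript arrays, 1 each for OPM2 cells given no agent, OPM2 cells after 48 h of KPT-9274, KMS11 cells given no agent and KMS11 cells after 48 h of KPT-9274. OPM2 and KMS11 are the names of established myeloma lines, and KPT-9274 is a dual inhibitor of PAK4, a kinase, and NAMPT, an enzyme of NAD synthesis. The labels state neither a dose, nor a culture time of the controls, nor any genotype beyond the line, and they mention no second culture. Each value is therefore 1 unreplicated array, and the number of arrays limits the precision.

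NF-kB works as dimers of 5 related subunits. RELA, REL and RELB carry the activating domains, while NFKB1 and NFKB2 encode precursors that are processed into DNA-binding partners. In resting cells the dimers are held by IkB proteins, of which NFKBIA encodes the best known, until the IKK kinase complex marks them for destruction. Freed NF-kB then switches on its own brakes, NFKBIA, NFKBIE and TNFAIP3 among them, so that transcripts of these genes are commonly read as a sign of recent NF-kB activity. Myeloma cells often carry lesions that keep this pathway active.

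The binding sequence of NF-kB, the kB site, can be seen in the promoters of most of these genes. The 250 bases before the start sites of TNFAIP3 and NFKBIA are given first, because the results turn on these genes. They are from RefSeq, build GRCh38.p14, at chr6:137867009-137867258 on the plus strand for TNFAIP3 and chr14:35404750-35404999 on the minus strand for NFKBIA, and capitals mark matches to the kB consensus of 10 bases, searched on both strands.

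TNFAIP3: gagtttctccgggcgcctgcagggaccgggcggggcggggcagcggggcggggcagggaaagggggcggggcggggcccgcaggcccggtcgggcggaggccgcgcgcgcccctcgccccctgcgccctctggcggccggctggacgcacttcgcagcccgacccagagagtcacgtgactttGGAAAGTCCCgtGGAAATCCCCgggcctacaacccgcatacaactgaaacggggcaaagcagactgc

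NFKBIA: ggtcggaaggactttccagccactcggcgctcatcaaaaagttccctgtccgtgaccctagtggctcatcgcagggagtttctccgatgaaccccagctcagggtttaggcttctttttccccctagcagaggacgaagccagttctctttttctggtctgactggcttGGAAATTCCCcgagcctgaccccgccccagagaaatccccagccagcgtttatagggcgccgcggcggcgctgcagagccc

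TNFAIP3 has a pair of such matches near its start site and NFKBIA has 1. Shorter stretches around a match are given for 4 other members, for comparison of the sites themselves: NFKB1 (chr4:102501300-102501329, + strand), NFKB2 (chr10:102395674-102395703, + strand, the third of its 3 start sites), REL (chr2:60881517-60881547, + strand, where 2 overlapping matches make up the capitals) and NFKBIZ (chr3:101827757-101827786, + strand).

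NFKB1: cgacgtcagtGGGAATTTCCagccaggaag

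NFKB2: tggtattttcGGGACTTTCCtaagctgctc

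REL: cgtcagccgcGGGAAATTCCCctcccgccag

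NFKBIZ: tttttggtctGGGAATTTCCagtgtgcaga

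Of the 7 measured genes with an entry among the RefSeq promoters, 6 had a match before at least 1 start site (85.7%), and RELA had none before either of its 2. The consensus occurred before 3221 of 27305 genes with an entry (11.8%), and before 9.96% of single start sites. NFKBIE and RELB had no entry. These matches describe letters in a window and do not show binding in these cells.

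The labelled cell type was checked against marker genes first. A signal was called above background when it exceeded, on the same array, the 95th percentile over 392 genes for olfactory receptors, which are silent in most tissues. That level was 6.81 and 7.65 on the OPM2 control and treated arrays and 6.45 and 6.56 on the corresponding KMS11 arrays. Of 10 plasma cell markers 8 exceeded background in untreated OPM2 cells, 7 in treated ones and 4 on each KMS11 array. Of 6 measured erythroid markers 1, 0, 5 and 5 lay above it on the 4 arrays in that order, and of 6 monocyte and granulocyte markers 1, 0, 3 and 3. On the KMS11 control array GATA1, an erythroid transcription factor, read 15.9, and MAF, which KMS11 is known to overexpress, read 5.68, under background. The other 3 of 4 myeloma translocation genes lay above background there, FGFR3 at 7.99, NSD2 at 10.84 and CCND2 at 12.23. All 4 did on each OPM2 array, where MAF read 12.11 without and 10.87 with treatment. The erythroid markers and MAF thus go against the KMS11 label. So do the 3 monocyte and granulocyte markers above background and the plasma cell markers under it, except SDC1 and SLAMF7, which were under background on all 4 arrays. NSD2 and CCND2, being above background, do not go against the label, but both read lower than on the OPM2 control array (12.39 and 14.69). FGFR3 was above background too, but read 7.99 on the KMS11 control array against 13.55 on the OPM2 control array. The arrays are called KMS11-labelled below. The summed level of the erythroid markers was 16.35 before and 16.54 after treatment on those arrays (log2 of the sum) and that of the monocyte and granulocyte markers 16.47 and 16.16. Plasma cell markers summed to 17.33 and 17.02 in OPM2 and to 12.1 and 11.79 on the KMS11-labelled arrays, control first. Myeloma translocation genes summed to 15.56 and 14.18 in OPM2 and to 12.76 and 11.73 on the KMS11-labelled arrays. T and NK cell markers summed to between 8.14 and 8.43 on all 4 arrays and stromal markers to between 7.22 and 7.69. The part of cell makeup in the results was not tested, and in bulk RNA more cells of a type and more RNA per cell cannot be told apart.

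The question put to the arrays was how these transcripts differ between untreated cells and cells given KPT-9274 for 48 h, and whether both lines differ in the same way. The inhibitor transcripts TNFAIP3 and NFKBIA read far higher after treatment on the KMS11-labelled arrays and no higher in OPM2. On the KMS11-labelled arrays all 9 genes read higher after treatment, by 0.24 to 5.63 log2 units, and 3 of them by at least 2-fold: TNFAIP3, NFKBIA and NFKB1. Of all tested genes that could be read there (above background on at least 1 array of the line), 44.5% were higher, and of all genes tested 1.64% were at least 2-fold higher. None of the 9 was at least 2-fold lower, as 4.43% of all genes were. In OPM2 7 of the 9 could be read and 6 of them were lower, the exception being REL with 0.09. Of all genes that could be read in OPM2, 68.9% were lower as well, so the OPM2 direction was common. By at least 2-fold, 1 of them was lower there as deposited, NFKBIE, beside 5.52% of all genes, and 0 were higher, beside 2.51%. The median change of the genes that could be read was 0.8 on the KMS11-labelled arrays (9 genes) and -0.38 in OPM2 (7 genes). Over all tested genes that could be read in the same line it was -0.06 and -0.24. The OPM2 median of the members takes NFKBIE as deposited, though its treated value lies under background. With NFKBIE at its bound of -0.13, the middle value would be that of RELA, -0.24.

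**Figure D1:**
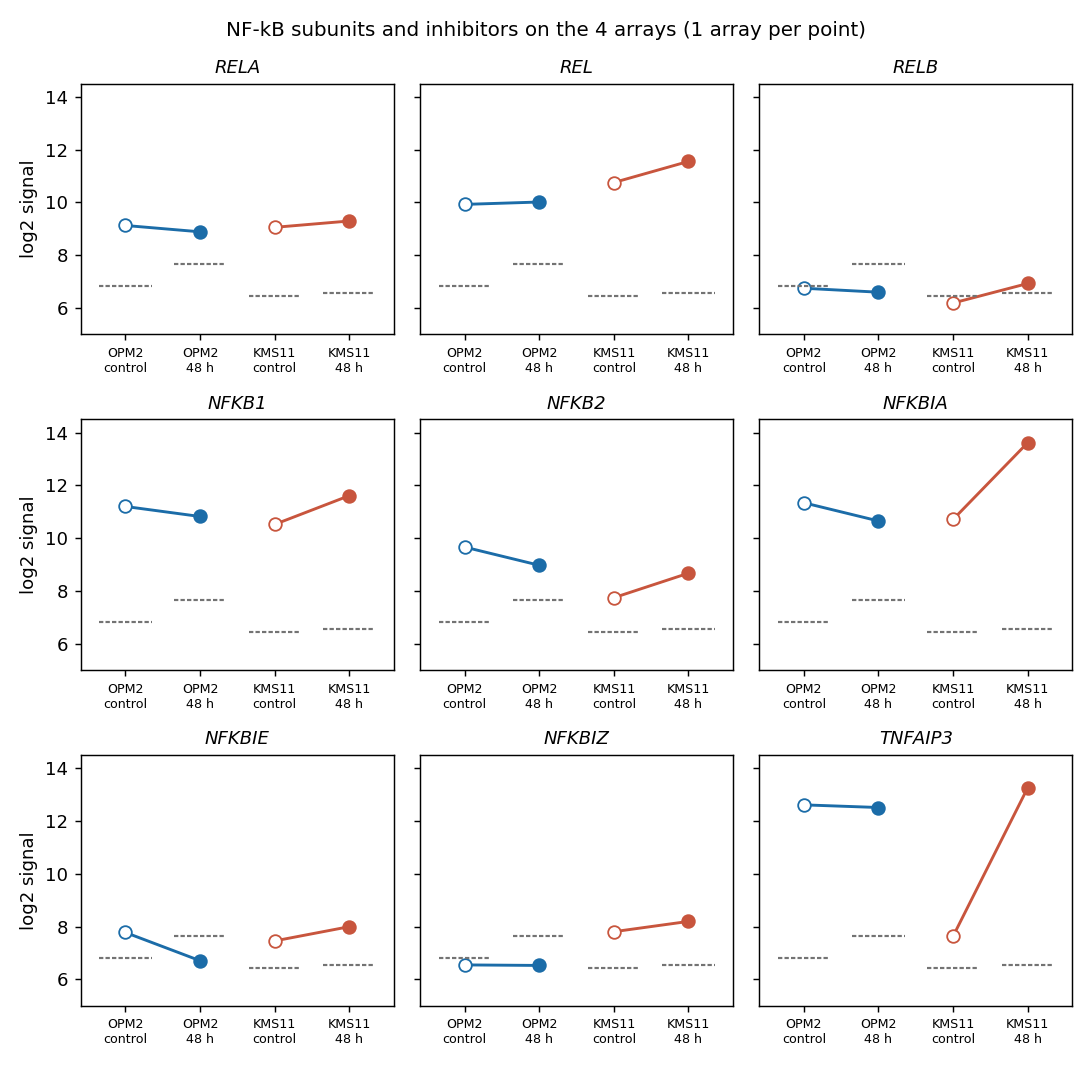
Log2 signal (vertical axis) of the 9 measured genes on the 4 arrays (horizontal axis). Each point is 1 array, open for control and filled for 48 h of KPT-9274, blue for OPM2 and red for KMS11-labelled cells, and dashed marks give each array's background. TNFAIP3 goes from 7.64 to 13.27 on the KMS11-labelled arrays, while its OPM2 points lie at 12.62 and 12.52.

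Among the inhibitors, TNFAIP3 encodes a ubiquitin-editing enzyme that shuts off signalling upstream of IKK. In OPM2 it read 12.62 without and 12.52 with treatment, and in KMS11-labelled cells 7.64 without and 13.27 with treatment (cluster TC06001027.hg.1). The low value is thus the KMS11-labelled control alone, and the other 3 arrays lie within 1 log2 unit of each other. The change on the KMS11-labelled arrays was 5.63, or 49.5-fold, and it ranked 1 of 16790 genes by size of increase there. In OPM2 the change was -0.1. NFKBIA, the IkB protein that takes NF-kB back out of the nucleus, read 11.34 and 10.65 in OPM2 and 10.71 and 13.62 on the KMS11-labelled arrays, control first (cluster TC14001036.hg.1). The treated KMS11-labelled array stands above the other 3, which span less than 1 log2 unit. Its changes were -0.69 in OPM2 and 2.91, or 7.52-fold, on the KMS11-labelled arrays, where it ranked 5 of 16790.

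The other inhibitors had smaller changes on the KMS11-labelled arrays. NFKBIE encodes IkB epsilon, another cytoplasmic inhibitor. It read 7.78 and 6.71 in OPM2 and 7.46 and 8 on the KMS11-labelled arrays. The OPM2 decrease of 1.07 as deposited ends under the raised background of the treated OPM2 array, so it can be stated only as lower by at least 0.13, and the change on the KMS11-labelled arrays was 0.54. NFKBIZ encodes a nuclear IkB protein that acts with NF-kB at a subset of its targets. It read 7.81 and 8.2 on the KMS11-labelled arrays, a change of 0.39, and 6.55 and 6.53 in OPM2, not above background on either array, so no OPM2 change is given.

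Of the subunits above background on all 4 arrays, NFKB1 and NFKB2 had the larger changes. NFKB1, source of the partner subunit of the classical dimer, read 11.2 and 10.82 in OPM2 and 10.52 and 11.61 on the KMS11-labelled arrays. Its changes were -0.38 and 1.09. The KMS11-labelled control is the lowest of the 4 arrays and the treated one the highest. NFKB2, whose product partners RELB in the non-canonical pathway, read 9.66 and 8.97 in OPM2 and 7.74 and 8.67 on the KMS11-labelled arrays, with changes of -0.69 and 0.93. Here both OPM2 arrays stayed above both KMS11-labelled arrays, so that the gap between the lines narrowed from 1.92 to 0.3 log2 units.

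The activating subunits REL and RELA varied less between control and treated arrays, while for RELB only a bound can be given. REL, the subunit best known from B cells, read 9.92 and 10.01 in OPM2 and 10.75 and 11.55 on the KMS11-labelled arrays, with changes of 0.09 and 0.8. RELA, the main activating subunit, read 9.12 and 8.88 in OPM2 and 9.05 and 9.29 on the KMS11-labelled arrays. All 4 values of RELA lie within 0.41 log2 units, and its changes were -0.24 and 0.24. RELB, the subunit of the non-canonical pathway, was above background on the treated KMS11-labelled array alone, at 6.92, after a control value of 6.18. It was higher there by at least 0.47, and no OPM2 change is given for its values of 6.74 and 6.59.

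No gene of the set passed the test of treatment over both lines. limma's moderated test, with the cell line as a block and the 2 lines as the only replicates, called 0 of the 9 at a Benjamini-Hochberg adjusted p of 0.05, as it called 0 genes higher and 0 lower of all 16790 (0% each). At an unadjusted p below 0.05 the counts over all genes were 666 higher and 1453 lower, with 0 of the 9 among them. Adjusted p ranged from 0.507 for TNFAIP3, with a mean change of 2.77 and a standard error of 1.48 (n = 2 lines, limma), to 1 for RELA, with 0 and 0.21. For NFKBIA the mean change was 1.11 with a standard error of 0.94 (limma adjusted p = 0.636). The errors of TNFAIP3 and NFKBIA are wide because the lines' changes differ, and that difference is itself the model's only residual and cannot be tested with 1 array per line and treatment.

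As a description of the 4 arrays, the change on the KMS11-labelled arrays exceeded the OPM2 change for all 7 genes that could be read in both lines. Of the 8982 tested genes that could be read in both lines, 5562 differed in that direction, so the direction alone was common. The excess was 5.73 for TNFAIP3 and 3.6 for NFKBIA, which ranked 1 and 2 of 16790 genes. It was 1.62 for NFKB2 and 1.47 for NFKB1, making 4 of 7 with an excess of at least 2-fold, against 5.4% of the 8982 tested genes that could be read in both lines. None had a deficit of that size, against 3.58%. For NFKBIE the excess was 1.61 as deposited and at least 0.67 with the bound on its OPM2 decrease. Below that size lay REL with 0.71 and RELA with 0.48. A lower value in OPM2 with a higher one on the KMS11-labelled arrays was found for 6 of the 7, where 23.9% of those 8982 genes showed it. Of the 6 members above background on all 4 arrays, 5 had that pattern, beside 24.2% of the 6697 tested genes above background on all 4. Centring each array on its median moved the OPM2 change of REL from 0.09 to -0.07. It left the other 6 readable members lower in OPM2 and all 9 higher on the KMS11-labelled arrays, as did quantile normalization and cyclic loess. Centring lowered every OPM2 change alike, so members already lower there had to stay lower. Quantile normalization and cyclic loess also moved the OPM2 median over all tested genes down, from 0.03 to -0.17 and -0.18. These scalings therefore cannot decide the OPM2 direction.

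**Figure D2:**
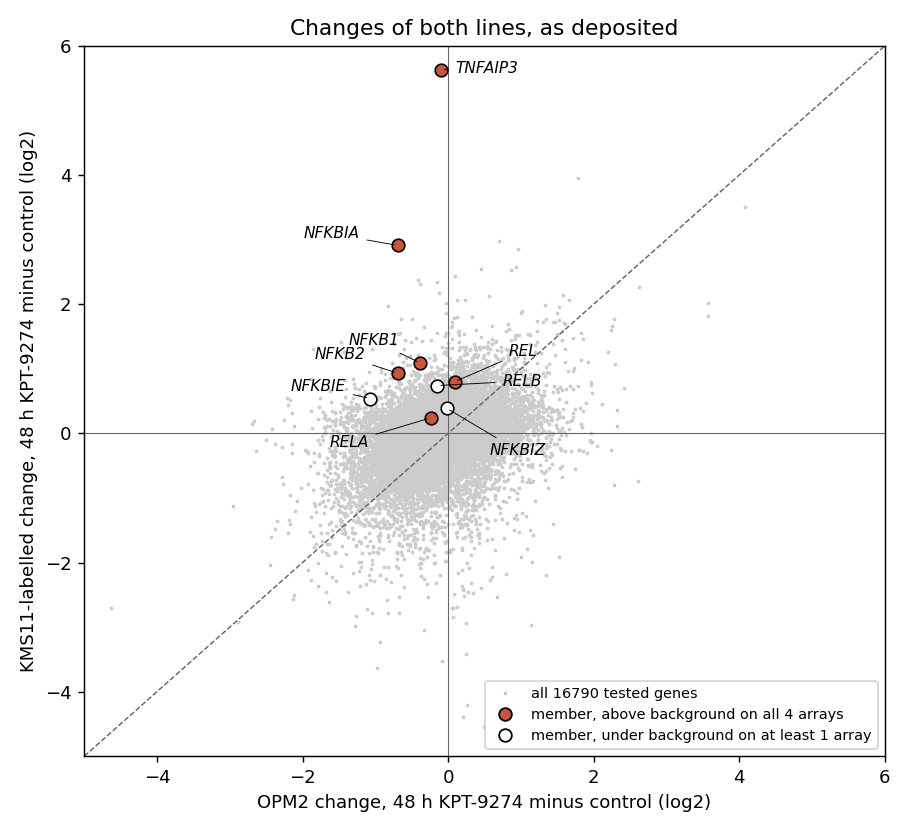
Change in OPM2 (horizontal axis) against change on the KMS11-labelled arrays (vertical axis), both as 48 h of KPT-9274 minus control in log2 units. Grey points are the 16790 tested genes, circles the 9 measured NF-kB genes (white where at least 1 array read under background), and the dashed line marks equal changes. The 6 filled circles lie above the line, with TNFAIP3 at 5.63 and NFKBIA at 2.91 farthest from it.

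Between the untreated arrays, TNFAIP3 differed most of the 9. It read 4.98 log2 units lower on the KMS11-labelled control than on the OPM2 control, and NFKB2 read 1.92 lower. These 2 of the 9 were at least 2-fold lower there, as were 10.9% of all genes tested. NFKBIZ was 1.26 higher, with OPM2 not above background, and 12% of all genes tested were at least 2-fold higher. The other 6 differed by less than 2-fold, from -0.68 for NFKB1 to 0.83 for REL. After treatment the order of the lines for TNFAIP3 was turned: the KMS11-labelled array read 0.75 above the OPM2 array, and for NFKBIA it read 2.97 above. Over control and treated arrays together, limma called 1 of the 9 for the line, NFKBIZ, higher on the KMS11-labelled arrays by 1.46 as deposited and by at least 0.78 against the OPM2 background (limma adjusted p = 0.025; higher on both arrays). The same test called 10.8% of all genes in this direction and 8.28% in the other. REL, higher by 1.19, missed the threshold (limma adjusted p = 0.053), and passed under quantile normalization (adjusted p = 0.0168), cyclic loess (0.0296) and with the lowest 50% of genes left out (0.0292).

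The rest of the pathway was read from 5 lists. Of 31 other NF-kB targets 29 were measured and 21 tested, and 11 of these 21 lay under background on every array. On the KMS11-labelled arrays 10 could be read, of which 8 were higher, with a median change of 0.6, and 3 were at least 2-fold higher as deposited. In OPM2 7 could be read, of which 6 were lower, with a median of -0.37. Of all genes that could be read in OPM2, 68.9% were lower, with a median of -0.24, so that direction was common. On the KMS11-labelled arrays 44.5% of such genes were higher, with a median of -0.06, and 1.64% of all genes tested were at least 2-fold higher. PLEK is a platelet and leukocyte protein listed among NF-kB targets in myeloma. It read 12.38 and 14.55 on the KMS11-labelled arrays, a change of 2.17, and was not above background in OPM2. ICAM1, an adhesion molecule, read 9.51 and 9.09 in OPM2 and 9.68 and 10.9 on the KMS11-labelled arrays, with changes of -0.42 and 1.22. The third was the kinase MAP3K8, named after its values were seen, which could not be read in OPM2 and was higher by at least 1.19 in KMS11-labelled cells. BCL2L1, a survival protein, went the other way on the KMS11-labelled arrays, with -0.94 beside -0.07 in OPM2. CD74, the invariant chain of antigen presentation, had changes of -0.77 in OPM2 and 0.58. The secreted targets IL6, TNF, LTA, LTB, CCL2, CCL3, CCL4, CCL20, CXCL1, CXCL2, CXCL8 and CXCL10 were not above background on any array, so their changes cannot be read.

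Among upstream genes, those of the IKK complex and canonical signalling had medians near 0. Of 19 genes of the IKK complex and canonical signalling 13 were tested and 12 could be read in each line. Their median changes were 0.04 in OPM2 and 0.03 on the KMS11-labelled arrays, beside -0.24 and -0.06 over all tested genes that could be read. None was at least 2-fold higher in either line, as were only 2.51% of all genes tested in OPM2 and 1.64% on the KMS11-labelled arrays. The adaptor TRAF5 read 9.01 and 7.66 in OPM2 and 9.01 and 8.32 on the KMS11-labelled arrays, with changes of -1.35 and -0.69. The adaptor MYD88 was lower by at least 1 in OPM2 and had -0.48 on the KMS11-labelled arrays. MALT1, a protease that activates NF-kB in lymphocytes, had -0.78 and 0.24. It read far higher in OPM2 on both arrays, at 13.19 and 12.41 against 8.05 and 8.29 (line difference -4.63, limma adjusted p = 0.00905). CHUK, an IKK kinase, was higher on the KMS11-labelled arrays by 1.68 (limma adjusted p = 0.0168), with treatment changes of 0.18 and -0.03.

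In the non-canonical and receptor list 9 of 12 genes were tested. The median was -0.58 over the 5 that could be read in OPM2, all lower, and -0.19 over the 7 on the KMS11-labelled arrays. Among all genes that could be read in OPM2, 68.9% were lower and the median was -0.24. TRAF3, which holds the non-canonical pathway off, read 9.17 and 8.24 in OPM2 and 8.98 and 8.22 on the KMS11-labelled arrays, and its changes of -0.93 and -0.76 were nearly alike in both lines. Its target for degradation, the kinase MAP3K14, had -0.58 and -0.32. The plasma cell receptor TNFRSF17 had -1.88 in OPM2 and was not above background on the KMS11-labelled arrays, where it was lower by at least 3.24 (limma adjusted p = 0.025 for the line). TNFRSF1A, a TNF receptor, read 7.12 and 7.04 in OPM2, the latter under background, and 9.43 and 9.54 on the KMS11-labelled arrays (line difference 2.41, limma adjusted p = 0.01). CD40 read 7.01 and 6.82 on the KMS11-labelled arrays, a change of -0.19, and was not above background in OPM2.

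Genes of the linear ubiquitin ligase, and separate brakes on the pathway, had small changes. Of 14 listed genes of either kind 12 were tested, and none was at least 2-fold apart in either line. Their medians were -0.14 over the 11 that could be read in OPM2 and -0.03 over all 12 on the KMS11-labelled arrays. TAX1BP1, an adaptor through which TNFAIP3 acts, read 11.14 and 11.64 in OPM2 and 10.67 and 11.39 on the KMS11-labelled arrays, with changes of 0.5 and 0.72. N4BP1, an inhibitor of NF-kB signalling, had -0.74 and -0.54. OTUD7B, a deubiquitinase related to TNFAIP3, had -0.1 and 0.34, and was higher in OPM2 (line difference -2.41, limma adjusted p = 0.0122). N4BP1 was also higher in OPM2 (line difference -1.01, limma adjusted p = 0.0393), a call lost after median centring (adjusted p = 0.0606), with a trended and robust prior (0.0535) and without the agent term (0.121). ZC3H12A, an RNase that degrades inflammatory transcripts, could not be read in OPM2 and was higher by at least 0.36 in KMS11-labelled cells. Of the 3 further IkB family genes, NFKBIB had -0.13 and 0.18 and NFKBID -0.27 on the KMS11-labelled arrays, with no reading in OPM2, while BCL3 was not above background on any array. None of the tested genes of these 5 lists passed limma's treatment test over all genes, and the smallest adjusted p in them was 0.328, for TRAF3.

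**Figure D3:**
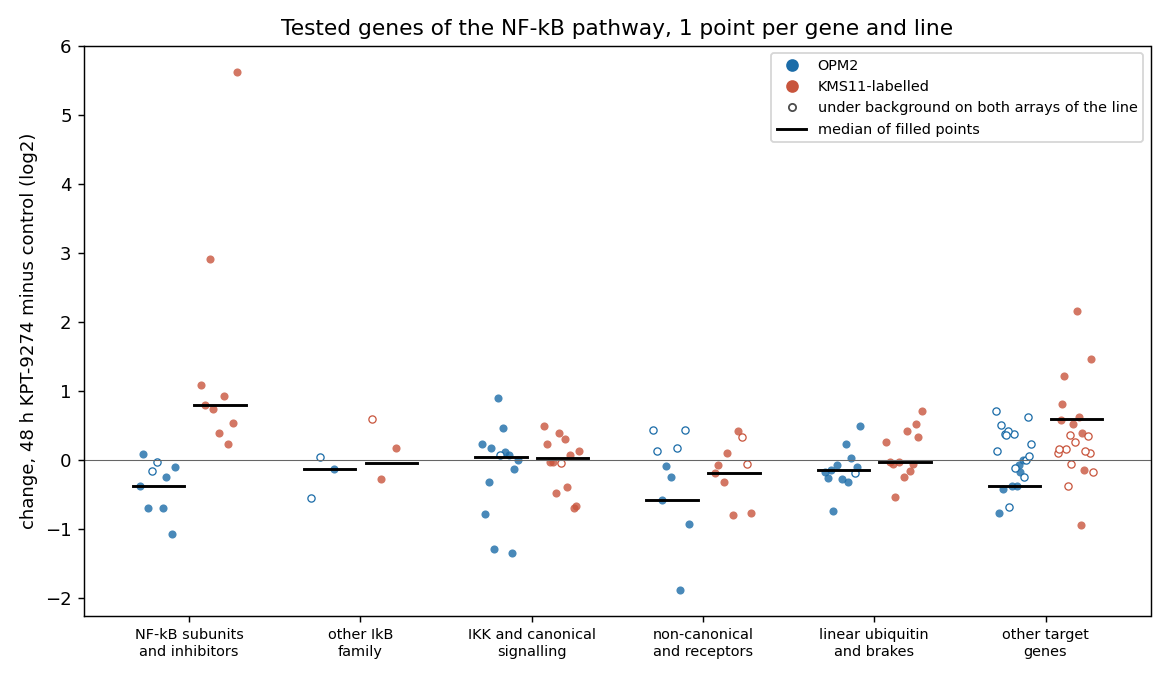
Change after 48 h of KPT-9274, treated minus control in log2 units (vertical axis), for the tested genes of the NF-kB set and of 5 further pathway lists (horizontal axis). Each point is 1 gene in 1 line, blue for OPM2 and red for KMS11-labelled cells, as deposited, open where both arrays of the line read under background, and black bars give the medians of the filled points. The red median lies at 0.8 for the NF-kB set, at 0.6 for the other target genes and at 0.03 for IKK and canonical signalling.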

How the data were processed

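Total RNA of 4 samples was hybridised as biotin-labelled sense-strand DNA, per the labels' protocols. Per the submitters' processing notes, the authors used the Transcriptome Analysis Console to make the deposited log2 values. How they were summarised and normalised between arrays is not given in the sources used here, nor is the genome build. The log2 scale was read from the values, which run from 2.49 to 19.74, and the array medians of 5.68 to 6.07 show no centring. Of 65528 clusters 22755 carried 1 symbol, 1389 carried several and were not used, and 41384 were unnamed here. Symbols were brought up to date with a RefSeq gene table. The brightest cluster stood for a gene, each of the 9 genes having 1, and the lowest 25% of genes by mean signal (up to 5.4) were left out.

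Line and agent were fitted in limma 3.58.1 (R 4.3.3) over 16790 genes (1 residual degree of freedom, 2.79 of the prior), two-sided, adjusted by Benjamini-Hochberg. The line served as block for the treatment, since both its arrays hold the same cells. P-values measure only the spread between these arrays. The script was checked on simulated data with the same change planted in both lines, which says nothing of changes that differ between lines. Where 1 array of a pair read under background, that background gave a bound to the change ("at least"), and no change was given where both did. The members, the lists and the use of olfactory receptor genes as background were chosen with earlier results of these data known. All 9 members were named. From each list came the 2 genes with the largest change shared by both lines, the 2 whose changes differed most and the 2 largest called line differences, where above background. Alternatives were other scalings between arrays, other filters, the mean of a gene's clusters, another prior, either term left out and other background percentiles.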

Additional observations from a re-analysis of the deposited data

Results flagged for a closer look

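Of the 7 members that could be read in both lines, 6 went in opposite directions in the lines, lower in OPM2 and higher on the KMS11-labelled arrays. The difference between the lines' changes was 5.73 log2 units for TNFAIP3, 3.6 for NFKBIA, 1.62 for NFKB2, 1.61 for NFKBIE (whose OPM2 decrease ends under background), 1.47 for NFKB1 and 0.48 for RELA. With 1 array per line and treatment, none of these differences was tested. Of all tested genes that could be read in both lines, 23.9% were lower in OPM2 and higher on the KMS11-labelled arrays. The OPM2 direction was common: 68.9% of all genes that could be read there were lower, with a median change of -0.24. The OPM2 changes of TNFAIP3 (-0.1) and RELA (-0.24) did not lie below that median.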

How the results depend on the processing

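The ranks of TNFAIP3 and NFKBIA by the difference between the lines' changes were 1 and 2 under the deposited scaling, quantile normalization, median centring, cyclic loess and the mean of clusters, with differences of 5.73 to 5.92 and of 3.6 to 3.82. The median change of the members lay between -0.4 and -0.24 in OPM2 and between 0.78 and 0.96 on the KMS11-labelled arrays over all scalings and filters tried. The median over all genes in OPM2 moved from 0.03 to -0.17 under quantile normalization, -0.13 under centring and -0.18 under cyclic loess. Over these scalings and the mean of clusters the OPM2 change lay between -0.85 and -0.66 for NFKBIA, -0.85 and -0.6 for NFKB2 and -0.54 and -0.34 for NFKB1. Restricting counts and medians to genes above background in a line was chosen after seeing the data. Over all 9 members the OPM2 median was -0.24, and over the 7 readable ones -0.38, with NFKBIE as deposited. Members at least 2-fold higher on the KMS11-labelled arrays numbered 3, or 4 under quantile normalization and cyclic loess. The treatment test called 5 genes under quantile normalization in place of 0, none of them a member, and 0 under each other alternative; without the line term (no replicate block) the smallest adjusted p was 1. The line test called between 2543 and 4302 genes. The line difference of RELB, -0.11 as deposited, turned to 0.08 under quantile normalization and 0.07 under cyclic loess (adjusted p = 0.918 and 0.917). The cause of these shifts was not tested. With background at the 90th percentile of olfactory receptor genes the OPM2 decrease of NFKBIE was at least 0.76, and at the 99th it could not be read, nor could RELB on any array.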
